A study of Mus musculus with 10 samples.

Results

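Mural cells are the contractile and supporting cells that wrap brain vessels, pericytes along the capillaries and smooth muscle cells around arterioles and larger vessels. Hippocampal RNA for 10 of their genes was examined in female P301S mice that carried an implant with or without dihydrotestosterone (DHT), an androgen that aromatase cannot turn into estrogen. The genes were taken by name: Pdgfrb, Rgs5, Kcnj8, Abcc9, Cspg4, Vtn and Anpep for pericytes, and Acta2, Tagln and Myh11 for vascular smooth muscle. All 10 were found among the 56884 gene identifiers in the count table, and all 10 passed the filter on low counts that left 17622 genes for testing. Their raw counts ran from 56 for Tagln to 7319 for Rgs5 in a single library.

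The series holds 10 RNA-seq libraries, each from the hippocampus of 1 mouse. All animals were ovary-intact P301S females (also called PS19 or hTau), which express human 1N4R Tau with the P301S mutation under the mouse Prnp promoter. At 6 months of age, 5 mice received a subcutaneous SILASTIC implant filled with 10 mm of DHT and 5 received a void implant, and hippocampi were taken after 12 weeks at 9 to 9.5 months. There was no wild-type, male or ovariectomized group, so the comparison is of DHT against void within tauopathy females. Libraries held 27188854 to 47113661 counts. Hippocampal neuron genes were present in every library, with Prox1, a marker of dentate granule cells, at 118 to 211 normalized read counts (CPM, library-scaled by TMM) and Wfs1, a CA1 marker, at 104 to 181. The S numbers in the sample names run from 4 to 11 for void and from 18 to 23 for DHT, so that whatever they stand for cannot be told apart from the treatment. Choroid plexus epithelium markers, 12 genes, summed to 118 to 1897 CPM in void and 2154 to 3045 CPM in DHT mice.

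As background, pericytes are recruited to growing vessels by PDGF-B from the endothelium, which binds PDGFRβ, the product of Pdgfrb. Brain pericytes are also known for Rgs5, a brake on G protein signalling, and for an ATP-sensitive potassium channel built from the pore encoded by Kcnj8 and the sulfonylurea receptor encoded by Abcc9. Smooth muscle cells contract through actin, myosin and their partners, among them smooth muscle actin (Acta2), transgelin (Tagln) and smooth muscle myosin heavy chain (Myh11). In bulk tissue, fewer cells of a type and less RNA per cell cannot be told apart.

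Promoter sequences are shown for Acta2, 1 of the 3 genes that differed most between mice, and for Rgs5 and Abcc9, which varied together. RefSeq on GRCm38.p6 gave a window from 250 bases before to 50 bases after the annotated start for 7 of the 10 genes. Distances below are to that annotated start, which was not checked and need not be where transcription begins in brain. There was none for Tagln, Myh11 or Pdgfrb. The windows are chr19:34255324-34255623 (minus strand) for Acta2, chr1:169655251-169655550 (plus strand) for Rgs5 and chr6:142702225-142702524 (minus strand) for Abcc9, each read 5′ to 3′ along the gene. Capitals mark matches to a CArG box with 1 core base other than A or T in Acta2, and to a MEF2 element in Abcc9.
Acta2: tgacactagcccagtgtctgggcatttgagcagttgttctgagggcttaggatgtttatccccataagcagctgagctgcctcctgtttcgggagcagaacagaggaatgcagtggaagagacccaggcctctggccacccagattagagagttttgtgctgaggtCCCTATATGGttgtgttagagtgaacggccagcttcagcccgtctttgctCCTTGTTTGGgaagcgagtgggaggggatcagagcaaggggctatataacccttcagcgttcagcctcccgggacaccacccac
Rgs5: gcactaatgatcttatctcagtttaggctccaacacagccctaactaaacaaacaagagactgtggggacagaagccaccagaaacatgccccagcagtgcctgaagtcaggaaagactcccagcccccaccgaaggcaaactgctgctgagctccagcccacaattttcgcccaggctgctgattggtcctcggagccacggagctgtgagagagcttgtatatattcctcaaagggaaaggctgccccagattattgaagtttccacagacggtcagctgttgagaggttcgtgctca
Abcc9: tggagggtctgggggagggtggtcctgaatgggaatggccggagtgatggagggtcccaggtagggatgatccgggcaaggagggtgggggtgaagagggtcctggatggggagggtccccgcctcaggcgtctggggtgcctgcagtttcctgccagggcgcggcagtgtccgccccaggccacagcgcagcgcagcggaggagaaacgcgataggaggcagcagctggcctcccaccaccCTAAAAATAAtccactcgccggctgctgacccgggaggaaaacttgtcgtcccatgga
The CArG box is the site of serum response factor in many contractile genes, and MEF2 elements are bound by the MEF2 family of muscle regulators. Acta2 held 2 such CArG-like boxes, CCCTATATGG beginning 84 bases and CCTTGTTTGG beginning 34 bases before the start, and a box of this kind was in 8.5% of the 32851 promoter windows. A strict CArG box was in none of the 7 members' windows and in 1.63% of all windows. Among the smooth muscle genes only Acta2 had a window to read. The Abcc9 window held the MEF2 element CTAAAAATAA, which was in 3.19% of all windows, and the Rgs5 window held neither kind of box nor a MEF2 element. Both strands were read, and a match or its absence in these windows is a description of letters only.

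No change of a mural gene with DHT was called. By edgeR (quasi-likelihood F-test, p adjusted by Benjamini-Hochberg over all genes tested), 0 of 10 were higher and 0 of 10 lower at an adjusted p under 0.05, with or without a limit of 1 on the log2 fold change. Among all genes tested, 2.17% were higher and 0.0227% lower under both limits, and 5.22% were higher and 0.261% lower at the adjusted p alone, so that a list of 10 genes without a call is near the background. By unadjusted p under 0.05 the count was also 0 (background 13.1% higher and 4.22% lower). DESeq2 called 0 as well, but its share of all genes called was not set beside this. In none of the 10 did the void and DHT mice separate without overlap, against 5.39% of all genes higher and 0.88% lower in this way. Of the members, 5 had a positive and 5 a negative log2 fold change, with a median of -0.02 and a range from -0.18 to 0.08, where 52.4% of all genes were positive. The median over all genes tested was 0.00937.

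**Figure D1:**
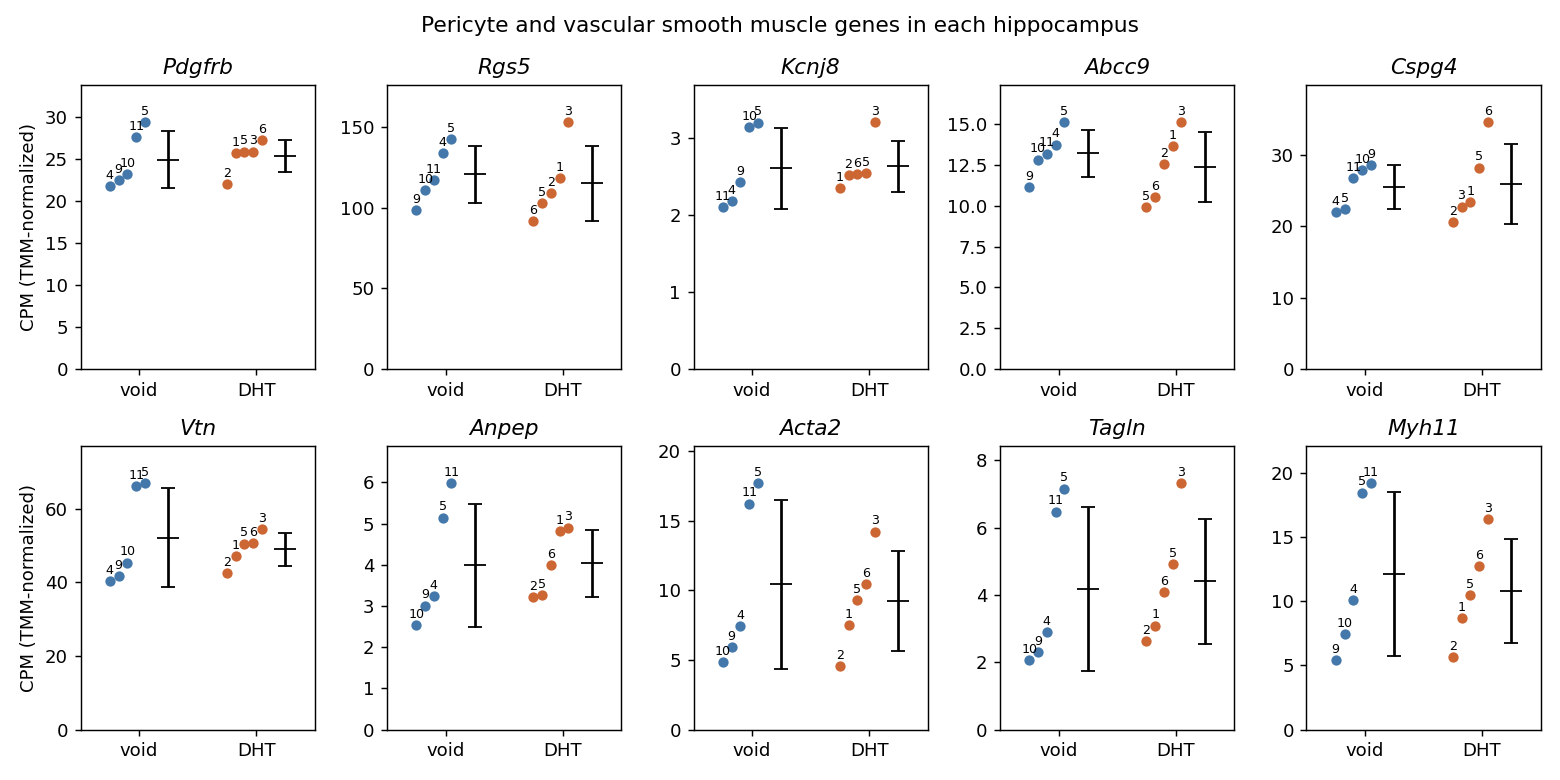
Normalized read counts, CPM (y axis, linear, from 0) for the 10 genes in each hippocampus, void in blue and DHT in orange, with the replicate number beside each point and the mean ± SD of 5 mice as a bar. The groups overlap in every panel, and void 5, void 11 and DHT 3 are the highest mice for Acta2, Tagln and Myh11.

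Pdgfrb, the receptor for PDGF-B, was among the steadiest of the genes. It stood at 23.2, 27.6, 21.8, 29.4 and 22.5 CPM in void replicates 10, 11, 4, 5 and 9, and at 25.7, 22.1, 25.9, 25.9 and 27.3 CPM in DHT replicates 1, 2, 3, 5 and 6. Every DHT value lay within the void range. The log2 fold change was 0.03 (SE 0.10, edgeR adjusted p = 0.936), with a 95% confidence interval for the fold from 0.882 to 1.18. For the other genes, values follow the same order of replicates.

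Rgs5 was the most abundant member. Its levels were 111, 117, 134, 143 and 98.7 CPM in void mice and 118, 109, 153, 103 and 91.6 CPM in DHT mice, so that both the highest and the lowest mouse were DHT-treated. The log2 fold change was -0.07 (SE 0.13, edgeR adjusted p = 0.875; fold interval 0.778 to 1.17).

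The groups also overlapped for the subunits of the vascular potassium channel. Kcnj8, the pore, was low throughout, at 3.14, 2.10, 2.18, 3.20 and 2.42 CPM in void and 2.35, 2.52, 3.20, 2.54 and 2.53 CPM in DHT mice (raw counts of 70 to 153). Abcc9, its receptor subunit, stood at 12.8, 13.2, 13.8, 15.1 and 11.2 CPM in void and 13.7, 12.6, 15.1, 9.94 and 10.5 CPM in DHT mice. The lowest pair of Abcc9 values were both DHT mice, while the highest DHT mouse matched the highest void mouse. Log2 fold changes were 0.02 for Kcnj8 (SE 0.16, edgeR adjusted p = 0.973; fold interval 0.800 to 1.29) and -0.09 for Abcc9 (SE 0.12, edgeR adjusted p = 0.784; fold interval 0.776 to 1.13). The relatives that form the corresponding channel of neurons and endocrine cells, Abcc8 and Kcnj11, had log2 fold changes of -0.16 (edgeR adjusted p = 0.529) and -0.01 (adjusted p = 0.987).

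Cspg4, the NG2 proteoglycan, marks both pericytes and oligodendrocyte precursors. It was measured at 27.8, 26.8, 21.9, 22.4 and 28.6 CPM in void and 23.4, 20.6, 22.7, 28.2 and 34.6 CPM in DHT mice. The DHT group spanned the whole void range and beyond it at both ends, and the log2 fold change was 0.02 (SE 0.14, edgeR adjusted p = 0.965; fold interval 0.826 to 1.25). Vtn, which encodes vitronectin, an adhesion protein secreted by pericytes, stood at 45.4, 66.2, 40.4, 67.0 and 41.8 CPM in void and 47.02, 42.5, 54.4, 50.5 and 50.6 CPM in DHT mice. Void replicates 11 and 5 exceeded every DHT mouse and the other 3 void mice lay below at least 4 of the 5, with a log2 fold change of -0.09 (SE 0.15, edgeR adjusted p = 0.839; fold interval 0.752 to 1.17). Anpep, the membrane aminopeptidase CD13, was at 2.55, 5.99, 3.23, 5.14 and 3.01 CPM in void and 4.81, 3.21, 4.90, 3.26 and 3.99 CPM in DHT mice. Here too void 11 and void 5 were the highest of the 10 mice, and the log2 fold change was 0.02 (SE 0.24, edgeR adjusted p = 0.984; fold interval 0.709 to 1.45).

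The smooth muscle genes differed between mice far more than between treatments. Acta2 was measured at 4.87, 16.2, 7.42, 17.7 and 5.93 CPM in void and 7.51, 4.54, 14.2, 9.31 and 10.5 CPM in DHT mice. Tagln, an actin-binding protein of contractile cells, was at 2.07, 6.47, 2.90, 7.16 and 2.30 CPM in void and 3.09, 2.64, 7.33, 4.91 and 4.08 CPM in DHT mice. Myh11, the contractile motor, was at 7.42, 19.2, 10.1, 18.5 and 5.40 CPM in void and 8.66, 5.65, 16.4, 10.5 and 12.7 CPM in DHT mice. Void 5, void 11 and DHT 3 were the 3 highest mice for each of these genes, and the lowest void mouse lay below the highest by 3.64-fold for Acta2, 3.46-fold for Tagln and 3.56-fold for Myh11. Between treatments the means were 10.4 ± 6.07 and 9.21 ± 3.59 CPM (SD, n = 5 and 5) for Acta2, with a log2 fold change of -0.18 (SE 0.38, edgeR adjusted p = 0.885). Tagln gave 0.08 (SE 0.38, adjusted p = 0.953) and Myh11 -0.17 (SE 0.36, adjusted p = 0.887) in the same edgeR test. The fold intervals were wide, 0.497 to 1.57 for Acta2, 0.594 to 1.89 for Tagln and 0.519 to 1.53 for Myh11, and on the log2 scale the lower end for Acta2 was -1.01, just past the limit of 1, whereas the intervals of the 7 pericyte genes stayed between folds of 0.709 and 1.45. The exact permutation test of each gene over all splits of the mice into groups of 5, two-sided and able to reach 0.00794 at the lowest, gave p values from 0.429 for Abcc9 to 0.960 for Cspg4 over the 10 genes.

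**Figure D2:**
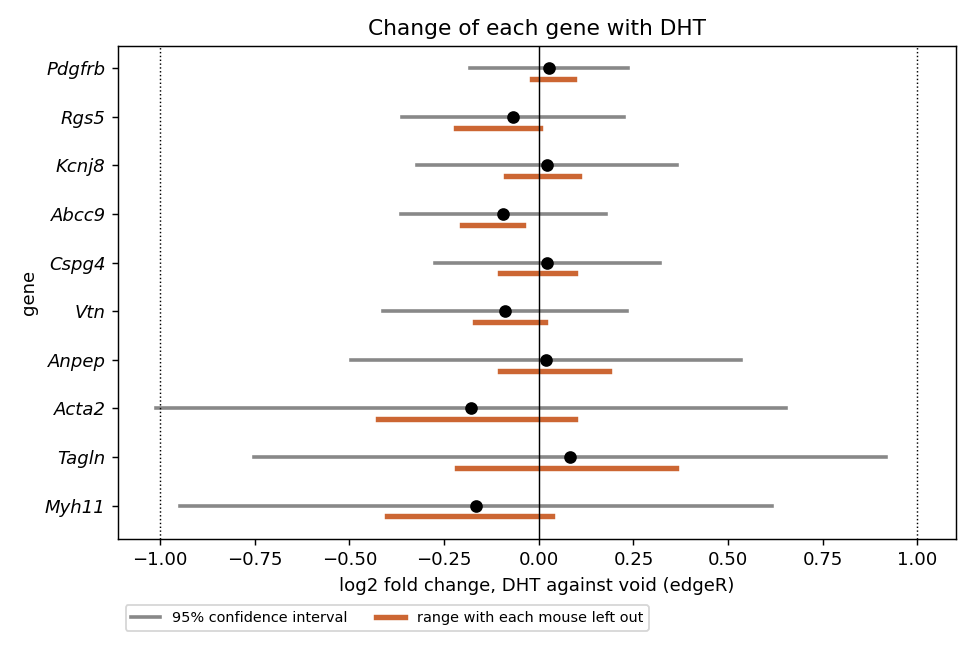
Log2 fold change of each gene in DHT against void mice (x axis, log2 scale), with the estimate as a black point, its 95% confidence interval in grey and, under it, in orange the range of estimates when any 1 mouse is left out. Dotted lines mark a log2 fold change of 1 in either direction, and the intervals are widest for Acta2, Tagln and Myh11.

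Leaving out 1 mouse moved the smooth muscle estimates most. Without DHT 3 the log2 fold change of Acta2 was -0.42, and without void 5 it was 0.10; in no such fit did the edgeR adjusted p of any of the 10 genes fall under 0.05. With a score of the choroid plexus markers as a covariate, the log2 fold changes of Acta2, Tagln and Myh11 were 1.07, 1.41 and 1.14 (SE 0.49, 0.48 and 0.44). Each of these estimates lay past the limit of 1 on the log2 fold change. Those of the pericyte genes ran from -0.01 for Cspg4 to 0.68 for Anpep, with Vtn at 0.48 and Pdgfrb at 0.31. None of the 10 genes passed the adjusted p in that fit, which does not show that they were unchanged. The share of all genes called was not set beside this or the fits with 1 mouse left out. The summed markers did not overlap between void and DHT mice, and their part in the result was not tested.

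Measured against other genes of like abundance, the spread of the smooth muscle genes was large. The biological coefficient of variation estimated by edgeR, which is the spread between mice of a group beyond counting error, was 41.7% for Acta2, 41.9% for Tagln and 39.3% for Myh11. Among the 1000 genes nearest in level, the median was 13.98%, 17.0% and 13.4%, and 99.1%, 97.2% and 98.5% of those genes varied less. Rgs5 (15.3%, median 8.98% at like level) and Vtn (16.7%, median 9.39%) also varied more than most genes of their level, 93.7% and 93.9% of which were steadier. Pdgfrb (11.4%, median 10.6%) and Kcnj8 (16.9%, median 18.7%) were near the middle.

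Per kilobase of exon, which allows levels of different genes to be compared, Rgs5 and Vtn stood above the rest. In void mice Rgs5 was at 26.6 ± 3.87 and Vtn at 25.7 ± 6.56 CPM per kb (SD, n = 5), and Rgs5 exceeded Vtn in 6 of the 10 mice, so that their order was not settled. Acta2 (4.75 ± 2.76) and Pdgfrb (4.55 ± 0.621) came next and were likewise not separated, Acta2 being the higher in 3 of 10 mice. Vtn exceeded Acta2, and Pdgfrb exceeded Cspg4, in 10 of 10 mice. Cspg4 (2.14 ± 0.260) and Tagln (2.10 ± 1.23) overlapped, as did Myh11 (1.59 ± 0.839) and Abcc9 (1.58 ± 0.173). Kcnj8 (1.02 ± 0.206) and Anpep (0.964 ± 0.362) were the lowest, and Abcc9 exceeded Kcnj8, its channel partner, in 10 of 10 mice. Lengths are those of all annotated exons of a gene joined together, which need not be the transcript used in brain.

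The same mice tended to be high or low for many of the mural genes. Void 5 was among the 3 highest mice for 9 of the 10 genes, DHT 3 for 8 and void 11 for 6, while void 9 was among the 3 lowest for 8 and DHT 2 for 7. To measure this, the mean of each group was removed from log2 CPM and the genes were correlated over the 10 mice, with two-sided exact permutation within groups and adjustment over the 45 pairs of members.

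**Figure D3:**
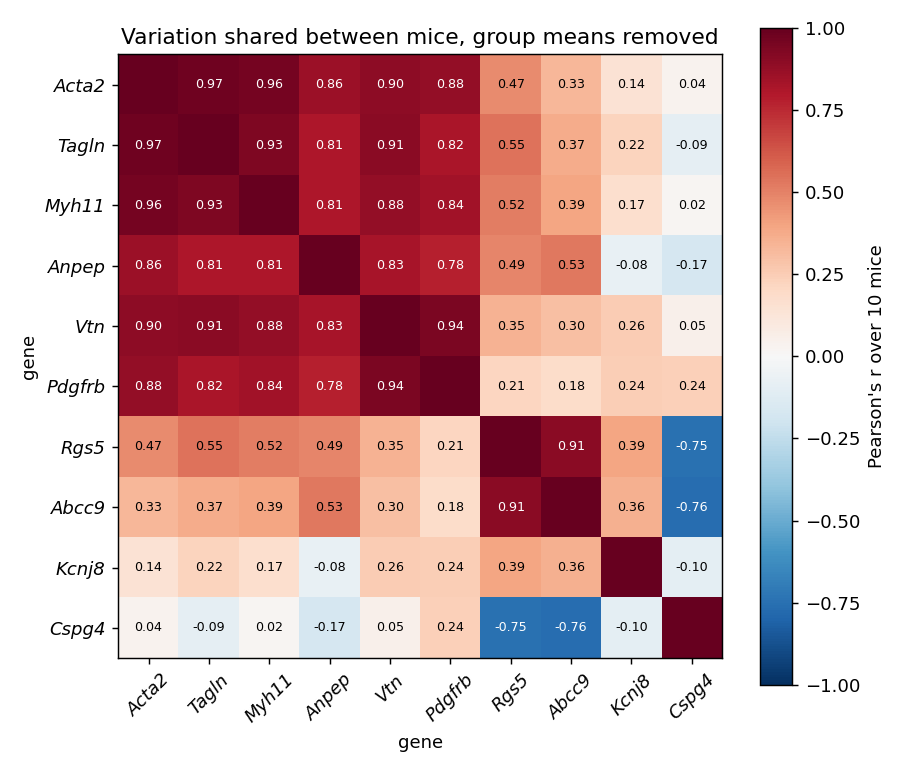
Pearson's r between each pair of genes over 10 mice after removal of group means (colour scale from -1 to 1, values printed in the cells). Acta2, Tagln and Myh11 form a block with r of 0.935 to 0.970, which Anpep, Vtn and Pdgfrb adjoin, Rgs5 and Abcc9 form a second pair, and Cspg4 is negative with that pair.

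Within the smooth muscle genes all 3 pairs passed adjustment. Acta2 and Tagln had r = 0.970 (exact permutation p = 0.000278, adjusted p = 0.0104) and rho = 0.927 (exact p = 0.000833, adjusted p = 0.0148), and r = 0.944 without the 2 mice farthest from the median, void 5 and void 11. Acta2 and Myh11 had r = 0.958 (exact p = 0.000556, adjusted p = 0.0104), rho = 0.939 (exact p = 0.00132, adjusted p = 0.0148) and r = 0.931 without the same 2 mice. Tagln and Myh11 had r = 0.935 (exact p = 0.00153, adjusted p = 0.0172), rho = 0.915 (exact p = 0.00347, adjusted p = 0.0313) and r = 0.906 without the 2 farthest. Because void 5, void 11 and DHT 3 stood apart, the 3 values were also taken over the other 7 mice, a set chosen after the levels were seen, where r was 0.882, 0.858 and 0.777.

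Pericyte genes did not form 1 block. Over the 21 pairs of the 7 pericyte genes the median r was 0.256, against 0.958 over the 3 smooth muscle pairs and 0.515 over the 21 pairs between the sets, and only 2 of the 21 pericyte pairs passed adjustment. One was Pdgfrb with Vtn, r = 0.940 (exact p = 0.00229, adjusted p = 0.0206), rho = 0.952 (exact p = 0.000417, adjusted p = 0.0148) and r = 0.936 without the 2 farthest mice. The other was Rgs5 with Abcc9, r = 0.905 (exact p = 0.000694, adjusted p = 0.0104), rho = 0.927 (exact p = 0.00111, adjusted p = 0.0148) and r = 0.818 without the 2 farthest. Over the other 7 mice these were 0.917 and 0.816. Vtn also went with the smooth muscle genes, at r of 0.906 with Tagln (adjusted exact p = 0.0307), 0.897 with Acta2 (adjusted exact p = 0.0320) and 0.876 with Myh11 (adjusted exact p = 0.0320). By rho these were 0.818, 0.891 and 0.867 (adjusted exact p = 0.0752, 0.0344 and 0.0469), so that Vtn with Tagln did not pass. By rho but not by r, 4 more pairs passed: Pdgfrb with Acta2 (0.939, adjusted exact p = 0.0344) and Myh11 (0.879, adjusted exact p = 0.0351), and Anpep with Acta2 (0.891, adjusted exact p = 0.0344) and Myh11 (0.879, adjusted exact p = 0.0463).

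The channel partners did not vary together detectably. Kcnj8 and Abcc9 had r = 0.355 (exact permutation p = 0.288), and -0.256 without the 2 farthest mice. Kcnj8 had the lowest CPM of the 10 genes in most mice. Pdgfrb and Rgs5, the usual pair of pericyte markers, had r = 0.211 (exact permutation p = 0.546). The lowest correlation of all was that of Abcc9 with Cspg4, r = -0.758 (exact permutation p = 0.0326, adjusted p = 0.0890), and it did not pass adjustment.

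Marker lists of other cell types were set against each member in the same way, 130 relations in all, of which 17 passed adjustment by Pearson's r and none by Spearman's rho, whose lowest adjusted p was 0.0506. Acta2, Tagln and Myh11 went with 14 fibroblast and leptomeningeal markers at r of 0.919, 0.944 and 0.888 (adjusted exact p = 0.0376 for each), and with 16 endothelial markers at 0.867, 0.886 and 0.892 (adjusted exact p = 0.0401, 0.0376 and 0.0376). For the fibroblast list rho was 0.915, 0.927 and 0.903, and r without the 2 mice farthest from the median was 0.897, 0.945 and 0.863. With the other smooth muscle genes the values were 0.956, 0.943 and 0.925 (adjusted exact p = 0.0376 for each). Fibroblast markers summed to 108 to 234 CPM in void and 138 to 221 CPM in DHT mice, and endothelial markers to 453 to 609 and 492 to 570 CPM, so that neither list separated the groups. Void 5, void 11 and DHT 3, the mice with the most Acta2, also had the highest endothelial and the highest fibroblast levels. With the choroid plexus list r was -0.64, -0.70 and -0.73 (adjusted exact p = 0.305, 0.261 and 0.159), and none passed adjustment. The part of these lists in the spread of the smooth muscle genes was not tested.

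**Figure D4:**
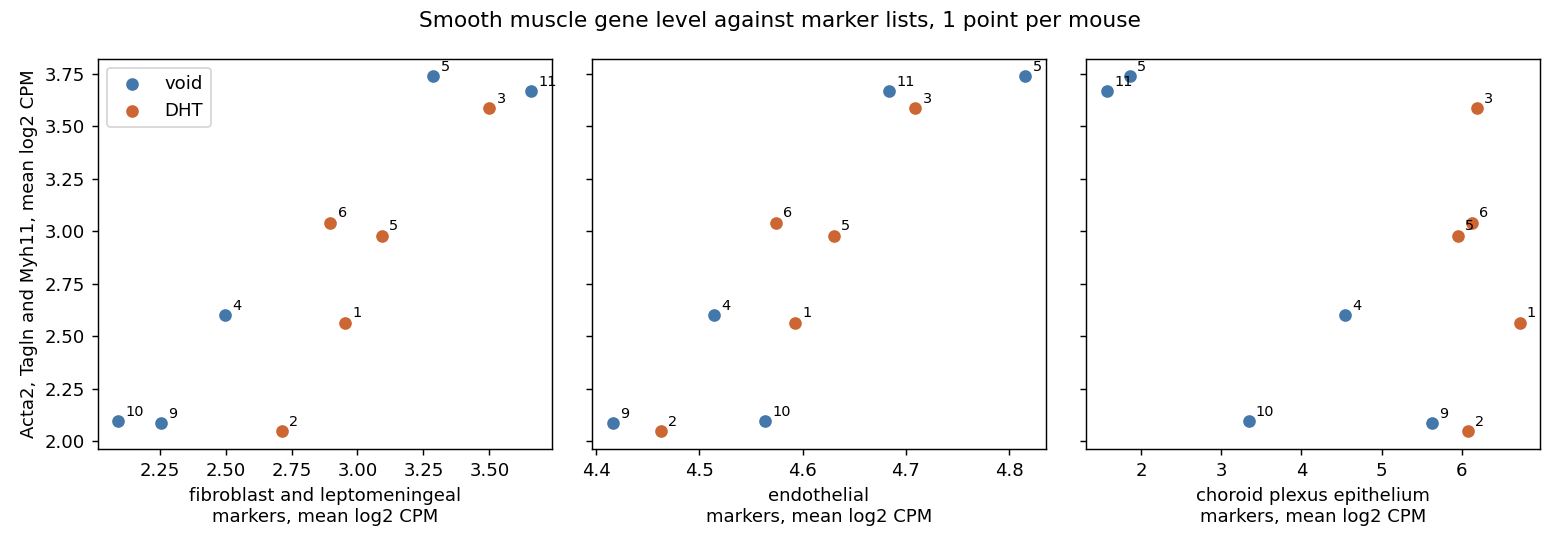
Mean log2 CPM of Acta2, Tagln and Myh11 (y axis) against the mean log2 CPM of fibroblast and leptomeningeal, endothelial and choroid plexus markers (x axes), 1 point per mouse with its replicate number, void in blue and DHT in orange. Void 5, void 11 and DHT 3 are at the top in all 3 panels, on the right for the first 2 lists, while for choroid plexus markers void 5 and void 11 have the lowest levels.

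Anpep also went with the fibroblast list (r = 0.911, adjusted exact p = 0.0376), and Vtn with the endothelial list (r = 0.905, adjusted exact p = 0.0376) and the other smooth muscle genes (r = 0.933, adjusted exact p = 0.0376). The 18 other pericyte genes went with Acta2, Tagln and Myh11 at r of 0.824, 0.826 and 0.832 (adjusted exact p = 0.0382, 0.0376 and 0.0401), but of the 7 pericyte members none passed adjustment with that list. Pdgfrb went with the genes of recruitment signalling, r = 0.866 (adjusted exact p = 0.0420), which fell to 0.709 without the 2 mice farthest from the median. By rho that relation was 0.782 (adjusted exact p = 0.0526). Cspg4 went with the neuronal channel relatives Abcc8 and Kcnj11, r = 0.814 (adjusted exact p = 0.0401), and 0.902 without the 2 farthest mice. Cspg4 and the list of 8 oligodendrocyte precursor markers had r = 0.813 (exact permutation p = 0.0115, adjusted p = 0.0535), while Rgs5 had -0.791 with the same list (adjusted exact p = 0.0535). Neither passed adjustment. Oligodendrocyte precursor markers summed to 625 to 776 CPM in void and 665 to 768 CPM in DHT mice. By edgeR 0 of 8 were called at the adjusted p (background 5.22% higher and 0.261% lower). The lowest p values were those of Sox10 (log2 fold change 0.28, edgeR adjusted p = 0.450) and Tnr (-0.13, adjusted p = 0.461).

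Each member was also expressed relative to the mean of the endothelial markers in the same mouse. The differences between DHT and void mice on this log2 scale ran from -0.10 for Abcc9 to 0.18 for Tagln, with SDs within groups of 0.0604 to 0.720. Among the endothelial markers themselves, 0 of 16 passed the edgeR test by adjusted p (background 5.22% higher and 0.261% lower). By unadjusted p under 0.05 the count was also 0 (background 13.1% and 4.22%), with a median log2 fold change of -0.02. Slc2a1, the glucose transporter of the blood-brain barrier, had 0.23 (edgeR adjusted p = 0.304) and Slco1a4, an organic anion transporter, 0.19 (adjusted p = 0.518).

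Beyond the 10 genes, further mural markers gave the same count. Of 18 other pericyte genes, all tested, 0 were higher and 0 lower at the adjusted p (background 5.22% and 0.261%). At unadjusted p under 0.05, 3 were higher, near the background of 13.1%, and the median log2 fold change was 0.11. The lowest p values were those of Mcam, the adhesion molecule CD146, at 0.26 (SE 0.10, edgeR adjusted p = 0.170), and Slc19a1, a folate carrier, at 0.41 (SE 0.16, adjusted p = 0.214). Of 18 other smooth muscle genes, 15 were tested and 0 passed in either direction. By unadjusted p under 0.05, 1 was higher (background 13.1%), and the median was -0.02. Mylk, the myosin light chain kinase, had 0.21 (edgeR adjusted p = 0.191). Tpm1, a tropomyosin, was lower in every DHT mouse than in any void mouse, as were 0.88% of all genes tested. It was lower by only 0.06 on the log2 scale, from 186 ± 2.26 to 179 ± 2.69 CPM (SD, n = 5 and 5, edgeR adjusted p = 0.547).

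Some genes of the signals that recruit and maintain mural cells were higher with DHT. Of 22 such genes, ligands, receptors and targets of the PDGF, TGF-β, Notch, angiopoietin and sphingosine phosphate pathways, 6 were higher and 0 lower at an adjusted p under 0.05 (background 5.22% and 0.261%), none past the limit of 1 on the log2 fold change, with a median of 0.20. The list was chosen with earlier results of these data known and was not tested as a whole. Its counts beside the background are therefore a description. Of the 22 genes, 4 were higher in every DHT mouse than in any void mouse, against 5.39% of all genes tested.

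**Figure D5:**
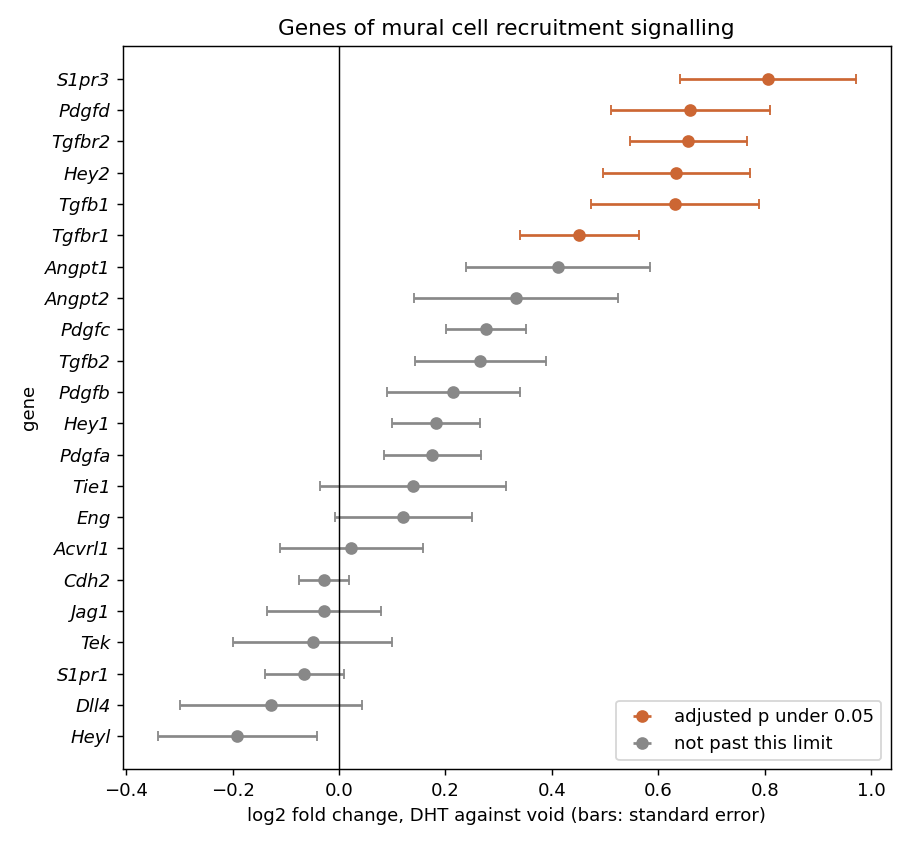
Log2 fold change in DHT against void mice (x axis, log2 scale) of the 22 genes of mural recruitment signalling, ordered by value, with the standard error as a bar and the 6 genes with an edgeR adjusted p under 0.05 in orange. The 6 lie between 0.45 and 0.81, and Pdgfb is at 0.21.

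Tgfbr2, a TGF-β receptor, rose from 26.2, 24.0, 21.9, 29.3 and 24.3 CPM in void to 46.6, 31.6, 44.4, 38.3 and 37.2 CPM in DHT mice, a log2 fold change of 0.66 (SE 0.11, edgeR adjusted p = 0.00927). S1pr3, a sphingosine phosphate receptor, rose from 10.995, 9.56, 8.96, 14.2 and 11.3 to 22.5, 13.4, 22.96, 16.3 and 20.9 CPM (log2 fold change 0.81, SE 0.16, adjusted p = 0.0163). Every DHT mouse exceeded every void mouse for Tgfbr2, while for S1pr3 DHT 2 lay below void 5. Hey2, a target of Notch, rose from 3.84, 3.86, 4.38, 4.89 and 5.86 to 8.66, 6.81, 6.93, 6.55 and 6.49 CPM (0.63, SE 0.14, adjusted p = 0.0209), and Pdgfd, a ligand of PDGFRβ, from 5.76, 5.93, 8.01, 7.77 and 7.57 to 13.5, 11.1, 12.9, 9.46 and 8.46 CPM (0.66, SE 0.15, adjusted p = 0.0247). Both separated the groups. The other 2 were the receptor Tgfbr1 (0.45, edgeR adjusted p = 0.0370) and its ligand Tgfb1 (0.63, adjusted p = 0.0388). Pdgfb, the endothelial ligand of PDGFRβ, had 0.21 (SE 0.12, edgeR adjusted p = 0.435).

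Several of these genes are also used by cells other than mural and endothelial cells, Tgfbr1, Tgfbr2 and Tgfb1 by microglia among them. Of 10 microglia markers, 5 were higher at the adjusted p and 0 lower (background 5.22% and 0.261%), with a median log2 fold change of 0.54. Their summed levels were 423 to 498 CPM in void and 602 to 858 CPM in DHT mice. Csf1r, the receptor for CSF1, had 0.55 (edgeR adjusted p = 0.00965) and Cx3cr1, the fractalkine receptor, 0.54 (adjusted p = 0.0251). The count of 6 was 0 once the choroid plexus score entered the fit, in which the log2 fold changes were 0.75 for Tgfbr2 (SE 0.19), 0.87 for S1pr3 (SE 0.29), 0.74 for Tgfb1 (SE 0.27), 0.53 for Tgfbr1 (SE 0.19), 0.44 for Pdgfd (SE 0.24) and 0.35 for Hey2 (SE 0.20), with larger standard errors throughout. It was 1 without void 11 or without DHT 1, 2 without void 10, and 3 without void 4 or without DHT 3, and with any 1 mouse left out the 6 log2 fold changes stayed positive, from 0.35 for Tgfbr1 to 0.92 for S1pr3. The choroid plexus score did not overlap between the groups, at 0.43 or less in void and 0.59 or more in DHT mice. None of these counts was set beside the share of all genes called in the same fit. The part of the microglia and choroid plexus markers in the 6 genes was not tested.

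Other lists fixed as markers of cells near vessels or in the tissue moved as follows. The background at the adjusted p was 5.22% higher and 0.261% lower, and 1 gene of 14 is near it. Of the 14 fibroblast and leptomeningeal genes 1 was higher, Igf2, an insulin-like growth factor, with a log2 fold change of 1.68 (SE 0.28, edgeR adjusted p = 0.00931), and the median of the list was 0.01. Igf2 did not follow the fibroblast levels of the mice. Void 11 and void 5, with the highest fibroblast levels in void mice, had 2.73 and 2.97 CPM, against 5.40 CPM in void 9. DHT 3, highest in fibroblast level among DHT mice, had the least Igf2 of them, 6.62 CPM. Its cell of origin was not tested. Of 12 choroid plexus genes 4 were higher and the median was 2.11, with Kl (1.85, edgeR adjusted p = 0.0321) and Otx2 (2.10, adjusted p = 0.0349) at the lowest p. Of 8 astrocyte genes 1 was higher, Gfap, the intermediate filament of astrocytes, at 1.18 (edgeR adjusted p = 0.00761). No call was made by edgeR among 5 tested border macrophage markers, 8 neuron markers or the 1 blood marker tested. Unadjusted p was under 0.05 for 0, 1 and 0 of them (background 13.1% higher and 4.22% lower).

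The genes that varied most like the smooth muscle members over the 10 mice, ranked by r with their mean over 14826 genes, were Gpr182 (0.960), Aldh1a2 (0.957), Spp1 (0.951), Ovgp1 (0.948) and Olfml2a (0.948). None of the 5 was called by edgeR, and of these Spp1 had the largest log2 fold change, 1.06 (adjusted p = 0.142). Those most like the mean of the 7 pericyte members were Tbx3 (0.963), Ssc5d (0.941), Slc25a24 (0.940), Gjb2 (0.939) and Olfml2a (0.936), with adjusted p values from edgeR of 0.627 to 0.978. Olfml2a was on both lists. As the highest of all the values ranked, these r are a description and carry no test.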

How the data were processed

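Hippocampal polyadenylated RNA from 5 void and 5 DHT mice was sequenced. The authors trimmed reads with HTStream, mapped them with STAR (version 2.7.10b) and deposited raw counts per gene. The sources name different genome builds, mm10 in the methods and mm39 in the submitters' processing notes, so no gene coordinates were taken from the table. Gene names and exon lengths came from GENCODE, with 51948 of 56884 identifiers matched, and promoters from RefSeq. No column was left out. Groups were taken from the sample titles. The methods state that littermates were randomized to implants and that several cohorts were used. Cohort and litter are not given per library in the labels, so neither entered a fit.

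Counts were normalized by TMM and fitted with edgeR (version 4.0.16) in R (version 4.3.3), using filterByExpr, glmQLFit and glmQLFTest without covariates. Adjusted p-values are Benjamini-Hochberg values over 17622 genes, two-sided. Standard errors were derived from the fold change and its F statistic. CPM are TMM-normalized. Log2 CPM used a prior count of 2. DESeq2 (version 1.42.0), other scaling, other filters, covariates and leaving out each mouse were alternatives. The fits were tested on simulated data.

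Named genes were the 10 members, up to 4 called genes with the lowest p in each other list (or the 2 lowest when none was called), and the 5 genes most like each set of members. The remaining genes of the recruitment list past the adjusted p, and Pdgfb, were named after their values were seen. A microglia marker that the rule would name is not reported here. Members and lists were chosen with earlier results of these data known.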

Additional observations from a re-analysis of the deposited data

Results flagged for a closer look

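For each of the 10 genes, the highest and the lowest of the 5 mice in each group were examined with Dixon's ratio. This is the gap to the nearest mouse divided by the range of the group, here on log2 CPM, against the 95% critical value of 0.71. Of 20 groups examined, 2 exceeded it, and chance flags about 1 in 20 groups. Pdgfrb was lowest in DHT replicate 2, with a ratio of 0.727, where it was at 22.1 CPM and the other 4 DHT mice were at 25.7 to 27.3 CPM. That flag depends on the log2 scale, as the ratio of the CPM themselves lies just under the critical value. Kcnj8 was highest in DHT replicate 3, with a ratio of 0.745, at 3.20 CPM against 2.35 to 2.54 CPM in the other 4 DHT mice. DHT 3 was also among the 3 highest mice for 8 of the 10 genes and DHT 2 among the 3 lowest for 7.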

How the results depend on the processing

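No paired analysis was possible because litter is not given per library in the labels. The labels do not say that a shared replicate number marks a pair. The 4 counts of called members were 0 under all 18 alternatives, those with 1 mouse left out included. These counts were not set beside the share of all genes called in the same fits, so they do not show that the result is stable. The recruitment count of 6 was 7 with DESeq2, 5 with DESeq2 size factors, 4 with a fibroblast score and 0 with a choroid plexus score as covariate, and from 1 to 6 with 1 mouse left out. With the choroid plexus score the 6 log2 fold changes were 0.35 to 0.87, and with 1 mouse left out 0.35 to 0.92. The recruitment counts were likewise not set beside the share of all genes called in the same fits. Following them through the alternatives was not planned. Without each mouse in turn, log2 fold changes ran from -0.019 to 0.0933 for Pdgfrb, from -0.22 to 0.00366 for Rgs5, from -0.0868 to 0.11 for Kcnj8, from -0.20 to -0.0418 for Abcc9, from -0.10 to 0.0951 for Cspg4, from -0.17 to 0.0169 for Vtn, from -0.10 to 0.18 for Anpep, from -0.42 to 0.0961 for Acta2, from -0.22 to 0.36 for Tagln, from -0.40 to 0.0348 for Myh11. Signs also turned with DESeq2 for Pdgfrb (-0.00132), Cspg4 (-0.00610) and Anpep (-0.0103), and with DESeq2 size factors in edgeR for Pdgfrb (-0.00148), Kcnj8 (-0.00568), Cspg4 (-0.00617) and Anpep (-0.00985). With the choroid plexus score they turned for Rgs5 (0.0874), Abcc9 (0.0455), Cspg4 (-0.0138), Vtn (0.478), Acta2 (1.07) and Myh11 (1.14). With the fibroblast score, chosen after seeing the data, they turned for Pdgfrb (-0.0201), Anpep (-0.0881) and Tagln (-0.133). None of these passed the test, and the cause was not tested. With library size alone, 4 correlations passed adjustment that otherwise had not, Acta2 with Pdgfrb (0.904) and Anpep (0.862), and Pdgfrb with Tagln (0.861) and Myh11 (0.873). The raw counts per library of Tagln, Anpep and Kcnj8 began at 56, 69 and 70, the lowest of the 10 genes.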
